A study of Rattus norvegicus with 12 samples.

Results

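The genes of distal calcium and magnesium handling and klotho were followed in kidneys of lean and obese rats with and without rosiglitazone. The set was given by 9 symbols, Kl, Calb1, Trpv5, Trpm6, S100g, Slc8a1, Atp2b1, Casr and Vdr, and every probe set that the array annotation assigns to them was taken. Of the 9 symbols, 8 had a probe set, with 12 probe sets in all, out of 14217 genes with a probe set of their own on the array. No probe set carried Trpm6, the magnesium channel gene, which was not analysed here. The model below tested 10 of the 12 probe sets, and the dimmer probe sets of Slc8a1 and Trpv5 lay below its signal filter.

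Kidney RNA came from 12 male Zucker rats in 4 groups of 3, with 1 Affymetrix Rat Genome 230 2.0 array per sample. The groups were lean rats on ground chow (lean control), lean rats given rosiglitazone in that chow, 3 mg/kg of body weight (lean rosiglitazone), and obese rats on the same diets (obese control and obese rosiglitazone). Feeding lasted 12 weeks, and the rats' age is not given in the sources used here. Obese Zucker rats are known to have a defective leptin receptor in all tissues, to overeat and to become insulin resistant, and the labels call the animals a diabetes model. Rosiglitazone, an insulin sensitizer, activates the nuclear receptor PPARgamma.

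In the distal convoluted and connecting tubule, calcium enters the cell from the urine through the channel Trpv5 and is carried across it by the binding proteins calbindin-D28k (Calb1) and calbindin-D9k (S100g). It leaves on the blood side through the sodium-calcium exchanger (Slc8a1) and the plasma membrane calcium pump (Atp2b1), while Trpm6 takes up magnesium. Parathyroid hormone and active vitamin D, through its receptor Vdr, stimulate this route. Klotho (Kl) is the co-receptor of the bone hormone FGF23, and the calcium-sensing receptor (Casr) of the thick ascending limb lowers calcium reabsorption when blood calcium is high.

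Of these genes, Slc8a1 alone passed the test, in the comparison of obese with lean kidneys over both diets. It was 1.79-fold higher in obese rats (95% interval 1.32 to 2.41). This was 1 of the 10 member probe sets tested, where 14.3% of all probe sets passed. Slc8a1 no longer passed when the spike-in signal of the arrays, described below, was taken into account. Calb1 and Kl had higher signals in every obese control rat than in any lean control rat, but neither passed. Casr was higher in every obese rat on rosiglitazone than in any lean rat on rosiglitazone, and did not pass either. Body types likewise did not overlap, in either direction, for 25.5% of all probe sets on control diet and 23.3% on rosiglitazone. Trpv5, S100g, Atp2b1 and Vdr did not pass in any comparison. No member passed in any comparison of rosiglitazone with control diet.

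Values are MAS5 signals in arbitrary units on a linear scale. Changes are differences of log2(signal + 16), which understate the change of dim genes, with a standard error (SE) from a limma model of all 12 arrays. A probe set was called at a Benjamini-Hochberg adjusted p under 0.05 over the 18625 probe sets tested. Array medians ranged from 204.0 to 238.6. The cre spike-in, RNA that the hybridization mix supplies, split the arrays into a higher class of 5 (mean signal 17322 to 19050) and a lower class of 7 (12735 to 14668). The higher class held 4 lean arrays and 1 obese array (lean control 1 and 2, lean rosiglitazone 1 and 2, and obese control 1), so it moved with body type. Lean control 3 and lean rosiglitazone 3 were the only lean arrays of the lower class. Fits within the lower class thus had 1 lean array per diet, and those within the higher class 1 obese array. A call lost within a class cannot be told apart from the loss of arrays. The 3 bacterial TrpnX control probe sets, which match no rat RNA, gave up to 59.6. Umod, the thick ascending limb marker uromodulin, and Slc12a3, the sodium-chloride cotransporter of the distal convoluted tubule, were high in every array (Umod from 16369 to 23092, Slc12a3 from 2334 to 5141). Precision is limited by the 3 arrays of each group.

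**Figure D1:**
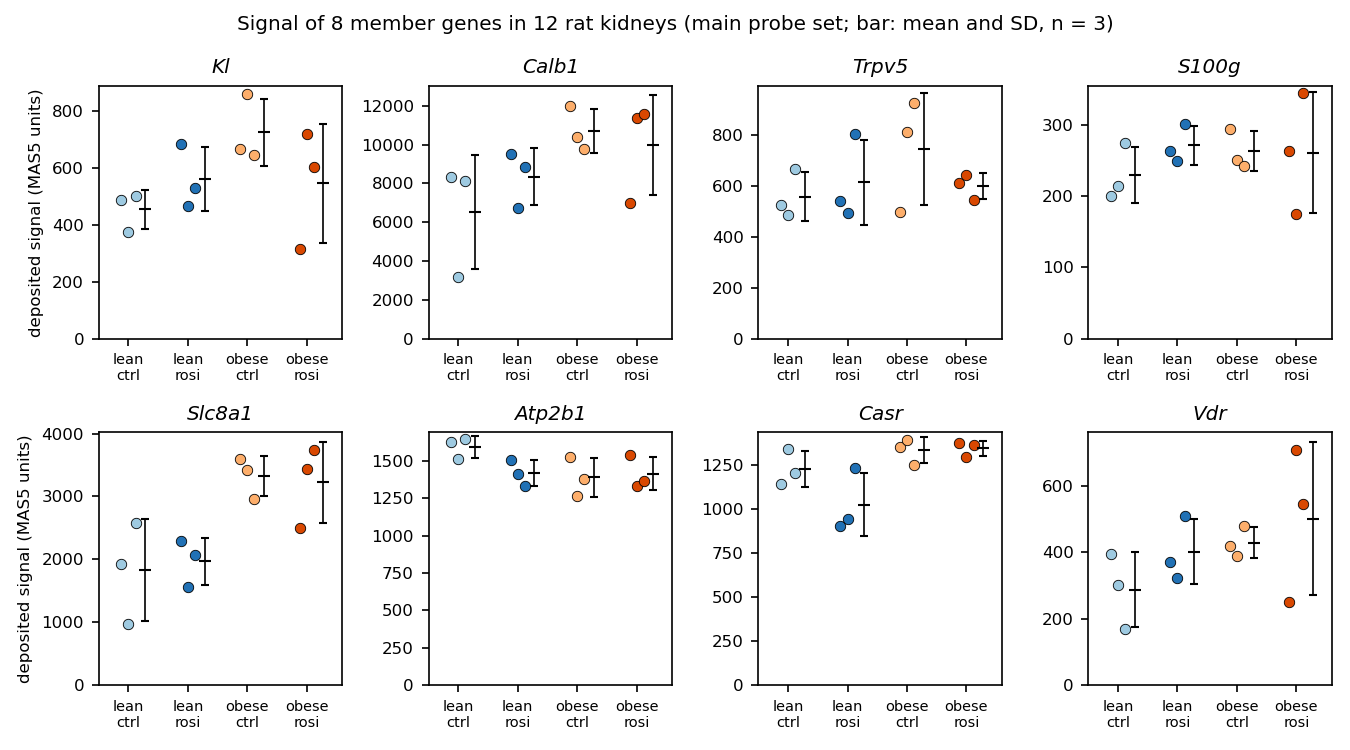
Deposited signal (y axis, linear, MAS5 units, starting at 0) of each member's brightest probe set in each rat (points), by group (x axis), with the mean and SD of the 3 rats beside them (bars). The Slc8a1 points of the obese control group, 2965 to 3598, all lie above those of the lean control group, 963.2 to 2575, while the S100g and Vdr groups overlap.

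Calcium entry was represented by Trpv5. Its brighter probe set had 524.6, 485.2 and 668.4 in lean control rats, 543.1, 494.4 and 806.3 in lean rosiglitazone rats, 500.2, 812.8 and 928.2 in obese control rats, and 613.8, 646.0 and 545.5 in obese rosiglitazone rats. All the groups overlapped. Over both diets the log2 difference between obese and lean rats was 0.19 (SE 0.16, 95% interval −0.15 to 0.52, limma adjusted p = 0.478). The dimmer Trpv5 probe set, below the filter, ranged from 38.6 to 171.1.

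The calcium-binding proteins were represented by Calb1 and S100g, and neither passed the test. Calb1 signals were 8337, 3156 and 8118 in lean control rats and 11960, 10399 and 9758 in obese control rats. The groups did not overlap, and lean control 2 was far below the rest of its group. On rosiglitazone the signals were 9492, 6716 and 8840 in lean rats and 6998, 11350 and 11563 in obese rats, where obese rosiglitazone 1 lay within the lean range. The log2 difference between obese and lean rats was 0.83 on control diet (SE 0.31, 95% interval 0.15 to 1.51, limma adjusted p = 0.166). It was 0.23 on rosiglitazone (adjusted p = 0.743) and 0.53 over both diets (95% interval 0.05 to 1.02, adjusted p = 0.134). Within the lower spike-in class it was 0.31 on control diet and 0.22 over both diets, with a single lean array per diet. Within the higher class it was 1.22 on control diet, from a single obese array. S100g, the smaller calbindin and a vitamin D target gene, had 200 to 274.7 in lean control, 249.2 to 301.4 in lean rosiglitazone, 243.1 to 295.0 in obese control and 175.1 to 345.0 in obese rosiglitazone rats. These ranges overlapped, with a log2 difference over both diets of 0.05 (95% interval −0.28 to 0.38, adjusted p = 0.876).

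Calcium extrusion held the called gene. Slc8a1 encodes the exchanger NCX1, which expels calcium in return for sodium. Its brighter probe set had 1931, 963.2 and 2575 in lean control rats and 3598, 3416 and 2965 in obese control rats. The lean rosiglitazone rats had 2286, 1558 and 2067, and the obese rosiglitazone rats had 2495, 3444 and 3734. Within each diet every obese rat was above every lean rat, although the lean control rat at 2575 was above the obese rosiglitazone rat at 2495. Group means were 1823 ± 811 and 1970 ± 373 in lean rats and 3326 ± 325.5 and 3224 ± 648 in obese rats, without and with the drug (SD, n = 3 each).

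Over both diets the log2 difference of Slc8a1 was 0.84 (SE 0.20, limma adjusted p = 0.0151). It was 0.97 on control diet (SE 0.28, 95% interval 0.35 to 1.58, adjusted p = 0.0749) and 0.70 on rosiglitazone (SE 0.28, 95% interval 0.09 to 1.32, adjusted p = 0.186), neither of which passed. The difference between these 2 estimates was −0.26 (95% interval −1.13 to 0.60, adjusted p = 0.992). In whole kidney RNA, more cells of a type and more RNA per cell cannot be told apart.

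The dimmer Slc8a1 probe set was higher in obese rats as well, but it lay below the filter and was not fitted with the spike-in class. It had 28.5, 21.7 and 75.8 in lean control, 132.6, 104.2 and 49.7 in lean rosiglitazone, 199.6, 234.4 and 227.8 in obese control, and 70.6, 240.0 and 300.1 in obese rosiglitazone rats. The control groups did not overlap, and the rosiglitazone groups did. Of the lean control signals 28.5 and 21.7, and of the lean rosiglitazone signals 49.7, were below the TrpnX maximum of 59.6, so the size of its difference depends on the offset. In the model without the filter it rose by 2.14 on control diet (adjusted p = 0.0308) and by 1.5 over both diets (SE 0.33, adjusted p = 0.0133) on the log2 scale, and had 0.86 on rosiglitazone (adjusted p = 0.413).

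The split by spike-in signal ran with this difference. With the class as a covariate the Slc8a1 difference over both diets was 0.69 (SE 0.22, adjusted p = 0.0584), and within the 7 lower-class arrays it was 0.46 (SE 0.15, adjusted p = 0.114), so the call was lost in both. Within the lower class the difference was 0.30 on control diet and 0.62 on rosiglitazone, each against a single lean array. Lean control 3, that array on control diet, had the highest lean signal. Within the higher class the difference was 1.39 on control diet, from a single obese array. Leaving out each of the 12 arrays in turn kept the call all 12 times, with log2 differences of 0.64 to 0.99 and adjusted p from 0.00316 to 0.0454. The lowest log2 difference came without lean control 2, and the lowest adjusted p without lean control 3.

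**Figure D2:**
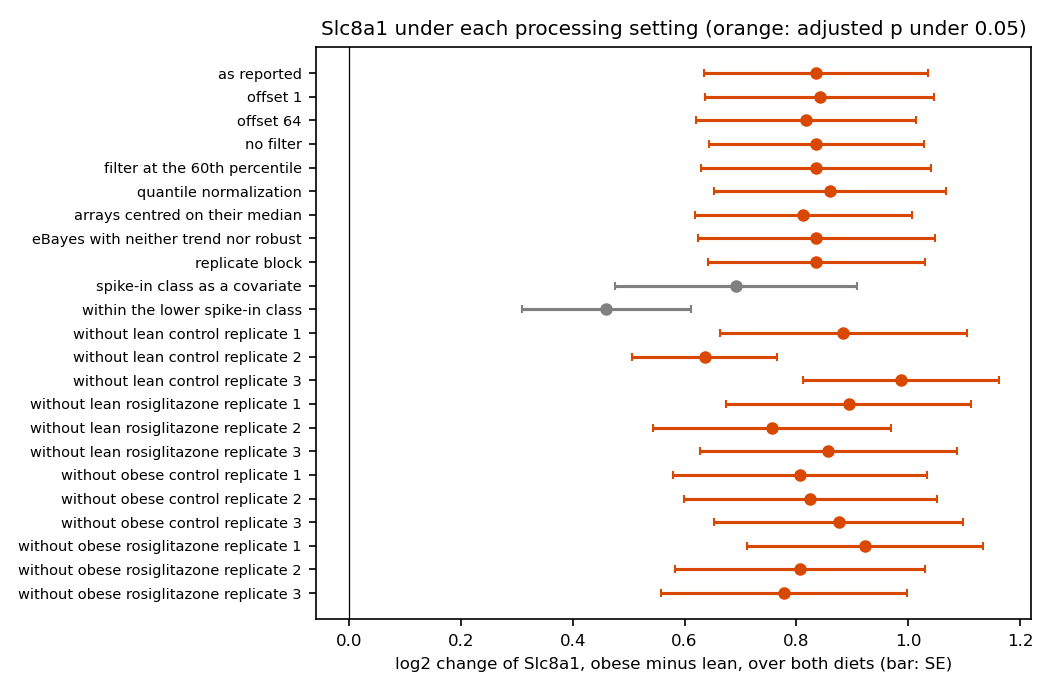
Log2 difference of Slc8a1 between obese and lean rats over both diets (x axis, bars are SE) under each processing setting (y axis), with orange points at an adjusted p under 0.05. The reported value is 0.84, and the 2 grey points are the settings that use the spike-in class, at 0.69 and 0.46.

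The RefSeq window at the annotated start of Slc8a1 (build GRCr8, chr6:19023309-19023608, plus strand, 250 bases before the start to 50 after it) is shown because this is the called gene. Slc8a1 is known to use alternative first exons, and the table lists 1 start, so this need not be the start used in the kidney.
Slc8a1: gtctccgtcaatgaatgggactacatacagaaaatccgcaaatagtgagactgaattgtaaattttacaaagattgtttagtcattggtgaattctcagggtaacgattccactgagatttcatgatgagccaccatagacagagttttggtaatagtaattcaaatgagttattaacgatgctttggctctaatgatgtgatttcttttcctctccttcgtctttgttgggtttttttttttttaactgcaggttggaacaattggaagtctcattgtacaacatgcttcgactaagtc
The window held 36.3% G and C, against a median of 51.7% over all windows of the table, and 6 CG pairs. It was searched on both strands for the receptor element AGGTCA, its variant AGTTCA, and direct repeats of AGGTCA with 1 base of any kind between them (the form known for PPAR receptors) or 3 (the form known for the vitamin D receptor). A repeat also counts as an AGGTCA match. No such letters were in this window. Of 33469 windows, 16.179% held AGGTCA, 14.473% AGTTCA, 0.054% the repeat spaced by 1 and 0.024% that spaced by 3. Windows were listed for 7 of the 9 genes, and Casr was the gene with a match.

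Atp2b1, the plasma membrane calcium pump PMCA1, is expressed in most cell types and had 3 probe sets. The brightest had 1625, 1510 and 1649 in lean control, 1507, 1415 and 1332 in lean rosiglitazone, 1523, 1265 and 1380 in obese control, and 1539, 1334 and 1368 in obese rosiglitazone rats. Lean rosiglitazone rats were all below lean control rats, and the other groups overlapped. Its log2 difference between obese and lean rats over both diets was −0.10 (95% interval −0.25 to 0.05, limma adjusted p = 0.369). The other probe sets gave −0.11 (adjusted p = 0.46) and 0.14 (adjusted p = 0.664), over signals of 548.9 to 787.7 and 148.7 to 319.0.

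Casr had small differences with a small spread. Lean control rats had 1142, 1343 and 1206, and obese control rats 1357, 1396 and 1253. Lean rosiglitazone rats had 905.2, 943.8 and 1233, and obese rosiglitazone rats 1375, 1299 and 1366. The control groups overlapped, and on rosiglitazone every obese rat was above every lean rat. The log2 difference between obese and lean rats was 0.12 on control diet (adjusted p = 0.644) and 0.40 on rosiglitazone (SE 0.12, 95% interval 0.15 to 0.65, adjusted p = 0.0667). Over both diets it was 0.26 (SE 0.08, 95% interval 0.08 to 0.44, adjusted p = 0.051).

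Whether Casr passed depended on single arrays and on the filter, and its estimate moved with the spike-in class. Within the lower class the difference was 0.13 on rosiglitazone and 0.13 over both diets, with a single lean array per diet. With the class as a covariate it was 0.20 over both diets (adjusted p = 0.195). Without lean rosiglitazone 3, the highest of its group, Casr was called on rosiglitazone (0.53, adjusted p = 0.0124) and over both diets (0.33, adjusted p = 0.00791). It was also called over both diets without lean control 2 (0.29, adjusted p = 0.045) and with a filter at the 60th percentile (0.26, adjusted p = 0.0408). The window at its start (GRCr8, chr11:77740364-77740663, plus strand) is shown for the match it holds, in capitals, which reads AGGTCA on the other strand and begins at −23 from the start.
Casr: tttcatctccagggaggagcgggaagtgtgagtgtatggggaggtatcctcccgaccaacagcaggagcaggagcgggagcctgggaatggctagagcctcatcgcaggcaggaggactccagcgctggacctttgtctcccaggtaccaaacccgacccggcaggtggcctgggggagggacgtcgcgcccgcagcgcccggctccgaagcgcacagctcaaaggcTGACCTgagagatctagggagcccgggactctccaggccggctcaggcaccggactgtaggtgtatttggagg
The window held 64.7% G and C and 18 CG pairs.

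Kl signals were apart between body types on control diet and overlapped on rosiglitazone. Its signals were 488.8, 374.0 and 499.7 in lean control rats and 668.0, 860.7 and 646.5 in obese control rats. On rosiglitazone they were 684.1, 467.8 and 529.0 in lean rats and 313.1, 718.9 and 604.7 in obese rats. The control groups did not overlap, the rosiglitazone groups did, and the lowest of all 12 arrays was obese rosiglitazone 1. The log2 difference between obese and lean rats was 0.66 on control diet (SE 0.25, 95% interval 0.12 to 1.2, adjusted p = 0.168), −0.10 on rosiglitazone (adjusted p = 0.876) and 0.28 over both diets (adjusted p = 0.336). The first and second of these differed by −0.76 (95% interval −1.52 to 0.01, unadjusted p = 0.0517 and adjusted p = 0.992 in limma), so they were not shown to differ. Without obese rosiglitazone 1, Kl was called by limma on control diet (0.66, adjusted p = 0.0445) and over both diets (0.45, adjusted p = 0.0356). That array is not part of the control diet comparison, whose estimate stayed at 0.66. It enters there through the spread, which the model estimates from all groups together. The window at its start (GRCr8, chr12:5325753-5326052, plus strand) is shown for its base composition, the richest in G and C of the 3 printed.
Kl: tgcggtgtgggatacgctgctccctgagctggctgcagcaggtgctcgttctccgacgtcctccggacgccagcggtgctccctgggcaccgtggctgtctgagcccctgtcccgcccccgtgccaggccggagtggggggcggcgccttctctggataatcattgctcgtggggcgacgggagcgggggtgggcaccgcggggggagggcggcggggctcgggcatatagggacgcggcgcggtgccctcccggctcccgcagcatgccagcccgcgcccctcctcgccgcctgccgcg
It held 75.0% G and C and 35 CG pairs.

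Vdr, the vitamin D receptor gene, varied widely within groups. Signals were 394.2, 300.4 and 168.5 in lean control, 372.5, 322.9 and 510.9 in lean rosiglitazone, 418.9, 390.2 and 480.7 in obese control, and 251.9, 708.2 and 546.7 in obese rosiglitazone rats. The groups overlapped in every comparison, and obese rosiglitazone 1 and 2 lay far apart. The log2 difference between obese and lean rats over both diets was 0.42 (95% interval −0.10 to 0.94, limma adjusted p = 0.282). It was called without obese rosiglitazone 1 (0.63, adjusted p = 0.0486).

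Over the set, 8 of the 10 tested probe sets had higher estimates in obese rats on control diet, with a median log2 difference of 0.28 against 0.03 over all probe sets. On control diet 0 members were called by limma, where 4.74% of all probe sets were, and 3 had an unadjusted p under 0.05. On rosiglitazone 0 were called, where 5% of all probe sets were, with 2 at an unadjusted p under 0.05 and a median of 0.05. Over both diets 1 was called higher, where 14.3% of all probe sets were called, with 3 at an unadjusted p under 0.05 and a median of 0.22. The share called is thus near or below that of the array as a whole. Between the control groups 3 of 10 member probe sets did not overlap (Kl, Calb1 and Slc8a1), where 25.5% of all probe sets did not. Between the rosiglitazone groups it was 2 of 10 (Casr and Slc8a1), against 23.3%.

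**Figure D3:**
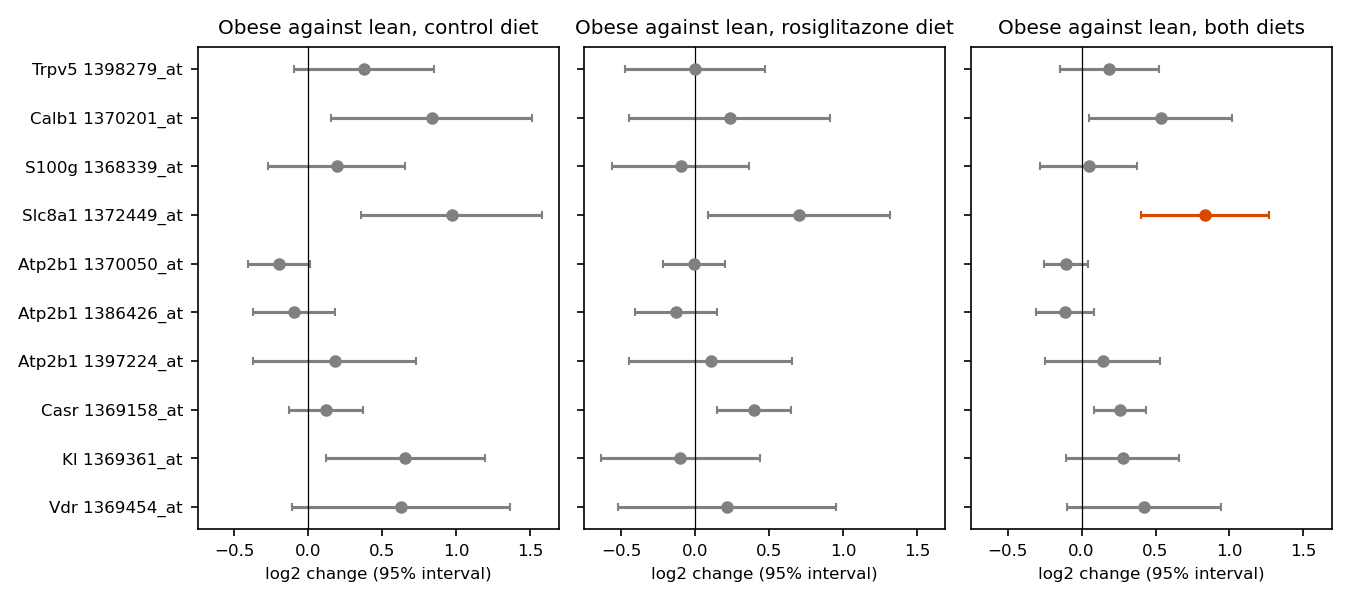
Log2 difference between obese and lean rats (x axis, bars are 95% intervals) for the 10 member probe sets tested (y axis), in panels for the control diet, the rosiglitazone diet and both together. The orange point, Slc8a1 over both diets at 0.84, is the called one.

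Rosiglitazone against control diet asks what the drug changed in either body type. In limma 0 members were called in lean rats, in obese rats, or over both body types, where 0.00537%, 0.0698% and 0.0591% of all probe sets were. The smallest adjusted p of a member was 0.981. At an unadjusted p under 0.05 there was 1 member in lean rats, Casr, and 0 in obese rats and over both. Of all 18625 probe sets there were 893, 917 and 946. Casr in lean rats had a log2 difference of −0.27 between drug and control (95% interval −0.52 to −0.02, adjusted p = 0.981). Atp2b1 was the member whose lean groups did not overlap, against 8.54% of all probe sets, and its brightest probe set had −0.17 (95% interval −0.38 to 0.04). No member's obese groups were apart, against 11.9% of all probe sets.

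The intervals show what size of drug effect these data could not exclude. For Slc8a1 the drug minus control difference was 0.20 in lean rats (95% interval −0.41 to 0.82) and −0.06 in obese rats (−0.67 to 0.55). Calb1 had 0.47 in lean rats (−0.22 to 1.15) and −0.13 in obese rats (−0.81 to 0.55). Kl had 0.29 in lean rats (−0.25 to 0.83) and −0.47 in obese rats (−1.01 to 0.07). The difference in the drug effect between body types was called by limma for 0 members and 0% of all probe sets, with 0 members and 802 probe sets at an unadjusted p under 0.05.

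Slc8a1, Calb1 and Kl were low in the same arrays. Lean control 2 lay below its group mean by log2 deviations of −0.80 for Slc8a1, −0.92 for Calb1 and −0.26 for Kl. Obese rosiglitazone 1 had −0.35, −0.47 and −0.69. With group means removed, Slc8a1 and Calb1 had a Pearson r of 0.955 over 12 arrays (exact permutation within groups, p = 0.00386, adjusted p = 0.108 over the 28 pairs of members) and a Spearman rho of 0.93 (exact permutation p = 0.00231, adjusted p = 0.0648). Without those 2 arrays r was 0.882. Kl with Slc8a1 had r = 0.657 (exact permutation p = 0.0108, adjusted p = 0.151) and rho = 0.699 (exact permutation p = 0.037, adjusted p = 0.346). Kl with Calb1 had r = 0.687 (exact permutation p = 0.0208, adjusted p = 0.194) and rho = 0.706 (exact permutation p = 0.0224, adjusted p = 0.313). For both pairs the arrays farthest out on Kl were obese rosiglitazone 1 and 2, without which r was 0.735 and 0.68. No pair passed after adjustment.

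**Figure D4:**
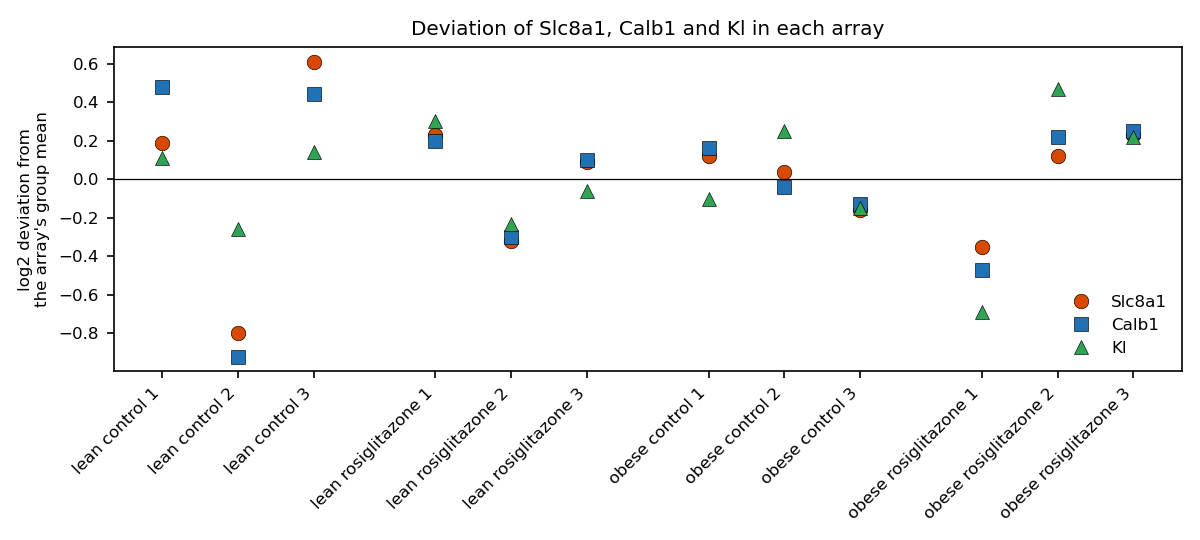
Log2 deviation of Slc8a1, Calb1 and Kl from the group mean (y axis) in each of the 12 arrays (x axis). All 3 genes are low in lean control 2 (Slc8a1 at −0.80) and obese rosiglitazone 1 (Slc8a1 at −0.35).

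The genes most like Slc8a1 over the 12 arrays, among 13957 named probe sets, were Tmem47 (r = 0.942), Hsd11b2 (r = 0.941) and Tor1b (r = 0.933). This is a description, and the arrays share body type and tissue make-up. Hsd11b2 inactivates corticosterone in aldosterone-sensitive cells of the connecting tubule and collecting duct. With group means removed, r was 0.879, 0.921 and 0.916, and that of Calb1 was 0.955.

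Markers of the cells known to carry these genes were counted over both diets, where 7.69% of all probe sets were called higher in obese rats and 6.62% lower. Of the connecting tubule and principal cell markers 7 of 13 were called higher and 0 lower over both diets (median log2 difference 0.39). Among those called were the water channel Aqp3 (0.71) and the sodium channel subunit Scnn1b (0.46). The water channel Aqp2, the brightest marker of the list, was not called (0.06, limma adjusted p = 0.661). With spike-in class added to the model 5 of the 13 were called, and within the lower class 1 (medians 0.32 and 0.32), where Scnn1b was lost (adjusted p = 0.0712). Their summed signal was 32836 to 38180 in lean control, 34611 to 39051 in lean rosiglitazone, 42796 to 47331 in obese control and 46856 to 47068 in obese rosiglitazone rats, with no overlap of body types. Of the distal convoluted tubule markers 2 of 6 tested were called higher and 0 lower (median 0.17), Slc12a3 at 0.62 (adjusted p = 0.0119) and the kinase gene Wnk1 at 0.46 (adjusted p = 0.00271). Within the lower spike-in class 0 of the 6 were called by limma, with Slc12a3 at 0.32 (adjusted p = 0.114) and Wnk1 at 0.29 (adjusted p = 0.154). Their sums were 13270 to 16534, 13429 to 16035, 17616 to 19841 and 15396 to 18738 in the same order. They were lowest within their groups in lean control 2 and obese rosiglitazone 1. Lean control 1 had a sum of 13343, and lay above its group mean for Slc8a1 (0.19) and Calb1 (0.48). The connecting tubule and principal cell sum was lowest of its group in lean control 2, and the obese rosiglitazone sums were close together. Whether these sums bear on the deviations of the members was not tested. Parvalbumin (Pvalb) and Kcnj10 of the distal convoluted tubule list had a group mean under the TrpnX maximum.

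Of 11 thick ascending limb markers, the segment of Casr, 3 were called higher and 1, Umod at −0.27 (adjusted p = 0.0171), lower (median 0.13), with sums of 54700 to 63091 in lean and 53960 to 60535 in obese rats. The Umod call was lost after quantile normalization, after median centring and within the lower class.

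Markers of other cells were counted in the same way. Of 17 proximal tubule markers 2 were called higher and 11 lower (median −0.38, and −0.20 after quantile normalization). Their sums were 123681 to 150651 and 126245 to 149198 in lean rats, and 101285 to 113191 and 101151 to 105187 in obese rats. Of 9 smooth muscle and pericyte markers, cells that also express Slc8a1, 2 were called higher and 0 lower (median 0.29), with sums of 5024 to 5934 in lean and 5475 to 7261 in obese rats. Called higher and lower were 2 and 0 of 8 intercalated cell markers, 0 and 0 of 9 endothelial, 1 and 0 of 6 podocyte, 1 and 8 of 13 fat cell, and 2 and 0 of 3 red blood cell markers. The part of these cell types in the member differences was not tested.

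The other genes of the pathways were taken from lists, with the brightest probe set standing for each gene. Their counts stand against the 7.69% of all probe sets called higher and 6.62% called lower over both diets. Of the other calcium entry, buffering and extrusion genes, 0 of 10 tested were called in limma over both diets (median log2 difference 0.13, against 0.03 over all probe sets). Klk1, tissue kallikrein, a connecting tubule enzyme, had 0.70 (adjusted p = 0.0708). Of the magnesium genes 3 of 12 were called higher and 0 lower (median 0.03). The count was 1 after quantile normalization, 0 by limma after median centring, 1 with the spike-in covariate and 2 within the lower class. Trpm7, the channel and kinase related to Trpm6, went from 1492 ± 138 in lean to 1876 ± 143 in obese rats (SD, n = 6 each; log2 difference 0.33, SE 0.07, adjusted p = 0.00804). Its call was lost with arrays centred on their median (adjusted p = 0.0564), and a second probe set had −0.20 (adjusted p = 0.38). Cnnm2 and Cnnm3, of a family of magnesium transport mediators, rose by 0.37 (adjusted p = 0.0403) and 0.29 (adjusted p = 0.0422), and each lost its call in 15 of 22 settings. A second Cnnm3 probe set had 0.11 (adjusted p = 0.381).

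Of 8 vitamin D genes 0 were called higher and 3 lower (median −0.06), all of the uptake of vitamin D binding protein. The lower count was 2 with the spike-in covariate and 1 within the lower class. Cubn, the endocytic receptor cubilin, went from 5556 ± 266 to 3945 ± 330 (SD, n = 6 each; log2 difference −0.49, SE 0.07, adjusted p = 0.000261), and it fell in each of the 22 settings. Lrp2, its partner megalin, fell by 0.37 (adjusted p = 0.0129, and 0.221 within the lower spike-in class). Gc, the binding protein itself, fell by 0.69 (SE 0.17, adjusted p = 0.0185), which was lost with the class as a covariate (0.089) and within its lower class (0.367). A second Gc probe set had −0.39 (adjusted p = 0.278). Cyp27b1, the enzyme that activates vitamin D, had −0.02. Cubn, Lrp2 and the phosphate gene Slc34a1 are also members of the proximal tubule marker list, and make up 3 of its 11 lower calls.

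Of 12 genes of klotho, FGF23, parathyroid hormone and stanniocalcin signalling 0 were called higher and 3 lower (median −0.03), with 2 lower under the spike-in covariate and 1 within the lower class. Gnas, the stimulatory G protein that parathyroid hormone acts through, fell by 0.34 (SE 0.07, adjusted p = 0.00446) and kept its call in all 22 settings. Its other probe sets had −0.74 (adjusted p = 0.00895) and −0.64 (adjusted p = 0.0543). The FGF receptor genes Fgfr1 and Fgfr3 fell by 0.24 (adjusted p = 0.0201) and 0.34 (adjusted p = 0.0248). Fgfr1 lost its call within the lower class (0.0985) and without obese rosiglitazone 2 (0.0534), and Fgfr3 in 7 of 22 settings. Second probe sets had −0.16 for Fgfr1 and −0.05 for Fgfr3.

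Of 6 phosphate genes 0 were called higher and 2 lower (median −0.01), with 0 by limma after quantile normalization and 1 after median centring, with the covariate and within the lower class. Slc34a1, the main phosphate cotransporter of the proximal tubule and a target of klotho and parathyroid hormone, fell by 0.38 (SE 0.06, adjusted p = 0.00132). That call was lost after quantile normalization (adjusted p = 0.0849), and a second probe set had 0.03 (adjusted p = 0.93). Pdzk1, a scaffold that binds the cotransporter, fell by 0.36 (adjusted p = 0.0334), but lost its call in 16 of 22 settings and had −0.02 within the lower class.

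**Figure D5:**
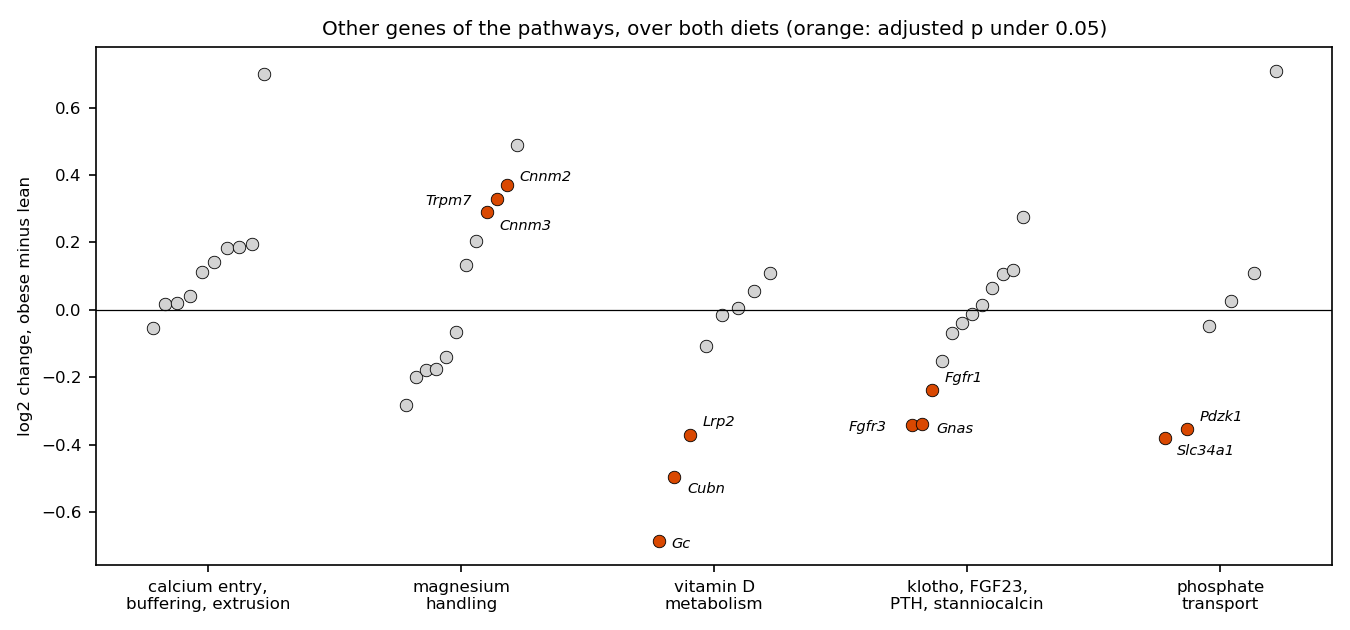
Log2 difference between obese and lean rats over both diets (y axis) for the other genes of each pathway (x axis), 1 point per gene. Called genes are orange and named; Trpm7 at 0.33 is among the 3 called higher, and Gc at −0.69 is the lowest of the called ones.

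Within single diets fewer pathway genes were called. On control diet Cubn had −0.47 (adjusted p = 0.0105) and Trpm7 0.39 (adjusted p = 0.0426, lost in 14 of 24 settings). On rosiglitazone Cubn had −0.52 (adjusted p = 0.00606), Slc34a1 −0.44 (adjusted p = 0.0131, lost in 7 of 23 settings) and Gnas −0.40 (adjusted p = 0.0311, lost in 10 of 23). No gene of these lists was called by limma in a comparison of the drug with control diet.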

How the data were processed

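Signals were made by the authors with MAS5, per the submitters' processing notes, from total RNA extracted with Trizol, per the labels, and deposited as intensity on a linear scale. For version, scaling and later steps the sources used here say nothing. These signals had a trimmed mean of 500.1 in every array (2% trimmed at each end) and were used with no further normalization. GEO's platform annotation gave 1 symbol for 20826 probe sets, several for 436 and none for 9780, which are unnamed here. The 57 control probe sets were left out of 31099. An offset of 16 was added before log2, and probe sets with a mean log2 under the 40th percentile (7.32, a signal of 143.9) were left out. A model of 4 group means (limma 3.58.1, statmod 1.5.0, R 4.3.3; eBayes with trend and robust settings; 8 residual degrees of freedom) gave 7 comparisons, each adjusted by the Benjamini-Hochberg method. The procedure was tested on simulated data. The labels number the samples of each group. The residuals of same-numbered arrays correlated from −0.18 to 0.18. They were positive for replicate 3 in every pair of groups (0.06 to 0.18) and of mixed sign for replicates 1 and 2. No clear pairing was seen, and these values cannot exclude one. The rats are taken as separate animals, 1 per array, from the study's design text.

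The members and lists were chosen with earlier results of these data known. All probe sets of the members are reported, up to 4 called genes of smallest p per list, and the 3 genes most correlated with a called member. Klk1, Cyp27b1, Umod, Aqp2, Pvalb and Kcnj10 were added after their values were seen. Alternatives were the offset, the filter, normalization, the eBayes settings, the groups fitted, a replicate block, the spike-in class, and each array left out. For pathway and marker genes these were added after seeing the data.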

Additional observations from a re-analysis of the deposited data

How the results depend on the processing

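Of 1587 recomputed member changes, 1576 kept their direction or stayed uncalled, 9 became called and 2 lost the call, and 79 uncalled changes had the other sign. No called change turned its sign. The lost calls were those of Slc8a1 over both diets with the spike-in class. On control diet 0 members were called, 1 without the filter, and 0 to 1 without 1 array. On rosiglitazone it was 0 to 1 without 1 array. Over both diets the count of 1 became 2 without the filter, 2 with a filter at the 60th percentile, 0 with the class as a covariate, 0 within the lower class, and 1 to 3 without 1 array. The replicate block, for numbers that showed no clear pairing, left 1 member called over both diets (Slc8a1, 0.84, limma adjusted p = 0.0185) and changed no call of a member. Slc8a1 was called by limma on control diet without lean control 3 (1.27, adjusted p = 0.0182) and on rosiglitazone without lean control 2 (0.70, adjusted p = 0.0351). Lean control 2 is not part of the rosiglitazone comparison, and enters there through the spread shared by all groups. Over all probe sets, the 882 calls on control diet (45.5% of them higher in obese rats) became 516 after median centring (34.7% higher), 548 with plain eBayes, 56 within the higher class and 165 within the lower. On rosiglitazone 932 became 493, 589 and, within the lower class, 507, and over both diets 2665 became 1142 within the lower class. Without lean control 1 or 2, or obese control 1, 2 or 3, the control diet count was 327 to 547, and without lean rosiglitazone 1 or obese rosiglitazone 1, 2 or 3 the rosiglitazone count was 469 to 535. Drug calls were 0 to 24 in lean rats, 0 to 34 in obese rats and 3 to 20 over both, and interaction calls 0 to 6. The cause was not tested. A dim signal limits the second probe sets of Slc8a1 and Trpv5.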
